A study of Mus musculus with 6 samples.

Results

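Ly6h, Dct and Wfdc12 are 3 genes of unrelated families whose best known sites of expression lie outside fat, and whose array signal was low in control white adipose tissue and much higher in YY1aKO tissue. They were chosen on exactly that comparison, for a low control reading and a strong rise, so their differences between the groups are described here and carry no test. Each was read by 1 probe set, a group of short probes for 1 transcript, so the 3 genes are 3 of the 12393 genes with a probe set of a single gene symbol, and 3 of the 22626 probe sets of the array after its control probes were left out.

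The study compared control mice, YY1flox/flox, with YY1flox/flox mice that also carried Adiponectin Cre, called YY1aKO, with 3 samples per group. All mice were 8 weeks old, of a mixed C57BL6 and 129 background, and had been exposed to cold (4 ºC) for 4 days. Cre was present only in the YY1aKO group, so what Cre does and what YY1 loss does cannot be told apart, and the Adiponectin promoter drives Cre in adipocytes, which leaves Yy1 in the other cells of the tissue. The labels disagree on the depot: EWAT stands in the titles and visceral fat in the tissue field, but subcutaneous fat in the description and the series title. No label says that the samples came from separate animals, so every spread and p-value below measures the difference between these samples, which may be technical.

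LY6H, the product of Ly6h, is a small membrane-anchored protein of the Ly6 family, known mainly from brain, where it binds nicotinic acetylcholine receptors and lowers their activity at the cell surface. Dct encodes dopachrome tautomerase, an enzyme of melanin synthesis in melanocytes, related to tyrosinase (Tyr) and to the tyrosinase-related protein Tyrp1. The transcription factor MITF drives all members of that enzyme family through a short promoter sequence called the M-box. Wfdc12 encodes a small secreted protein with a WAP domain, a fold found in inhibitors of serine proteases, and lies in a gene cluster with other WAP-domain genes and with genes for seminal vesicle secretions. YY1, a transcription factor with zinc fingers, activates some genes and represses others.

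The bases before the annotated start are shown for Dct and Wfdc12, because the knocked-out gene encodes a DNA-binding factor and because the M-box ties Dct to Tyr and Tyrp1. They come from RefSeq (GRCm38.p6) and are 250 bases each, written 5′ to 3′ on the strand of the gene. Both strands were searched for the M-box core CATGTG and for the YY1 core CCATNTT, and capitals mark a match. The Dct stretch is chr14:118052247-118052496, minus strand, and the Wfdc12 stretch is chr2:164190559-164190808, minus strand.
Dct: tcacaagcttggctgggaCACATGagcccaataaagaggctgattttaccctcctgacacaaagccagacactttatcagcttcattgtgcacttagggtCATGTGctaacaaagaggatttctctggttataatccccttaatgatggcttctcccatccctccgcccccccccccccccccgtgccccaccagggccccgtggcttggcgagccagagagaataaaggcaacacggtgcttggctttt
Wfdc12: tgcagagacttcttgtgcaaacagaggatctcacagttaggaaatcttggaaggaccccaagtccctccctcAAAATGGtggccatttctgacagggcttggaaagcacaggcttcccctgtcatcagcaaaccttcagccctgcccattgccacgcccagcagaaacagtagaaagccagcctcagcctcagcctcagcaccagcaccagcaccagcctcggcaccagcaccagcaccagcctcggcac
The Dct stretch held CATGTG once on the strand of the gene, at positions -150 to -145 counted from the start, and once on the opposite strand, where it reads CACATG. The Wfdc12 stretch held a single match to CCATNTT, on the opposite strand, where it reads AAAATGG, at positions -178 to -172. Neither motif is rare: of 32851 RefSeq promoter stretches of this length, 12.3% held CATGTG and 12.4% held CCATNTT on either strand. The letters CCATNTT were not in the Dct stretch and CATGTG was not in the Wfdc12 stretch, which says only that these letters are not in these windows. For Ly6h no sequence is shown.

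The same core lies in the stretches of Tyr (chr7:87493513-87493762, minus strand) and Tyrp1 (chr4:80833963-80834212, plus strand). In the 36 bases around it the 3 genes share a run of 10 bases, in capitals below, and 13 of 36 positions in all.
Dct: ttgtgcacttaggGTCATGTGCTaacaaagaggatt
Tyr: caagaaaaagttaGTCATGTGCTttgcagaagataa
Tyrp1: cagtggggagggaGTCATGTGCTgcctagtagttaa
These windows are shown because Dct is set against Tyr and Tyrp1 below.

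The values are RMA intensities on a linear scale, and differences are in log2 units, where 1 is a doubling. The targeted gene was low in YY1aKO tissue: the brightest Yy1 probe set read 1785, 1846 and 1596 in the controls and 373, 323 and 315 in YY1aKO, so that it fell by 2.37 ± 0.11 on the log2 scale (SE, n = 3 per group; limma, Benjamini-Hochberg adjusted p = 0.0034). Of the other Yy1 probe sets 2 also fell, and the dimmest, at 38.5 to 43.1 on all arrays, differed by -0.06. The fat cell markers were high in both groups, with summed intensities over their 14 probe sets of 132785, 74868 and 118324 in controls 1, 2 and 3 and 101976 to 114597 in YY1aKO. Control 2 stood apart. Its correlation with the other arrays across probe sets was 0.928 to 0.955, against 0.989 between controls 1 and 3 and 0.996 within YY1aKO, and its summed signal for 15 probe sets of epididymis markers was 143143, against 566 to 2152 in the other controls and 524 to 592 in YY1aKO. Control 3 held some of the same signal, with 2152 for the epididymis markers and 8311 for the markers of secretory epithelium, where control 1 read 566 and 2544. Counts of calls in the gene lists below are therefore given with and without control 2.

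Ly6h read 80.8, 51.7 and 72.7 in controls 1, 2 and 3 and 518, 1204 and 782 in YY1aKO samples 1, 2 and 3. The groups lay far apart: the lowest YY1aKO array was 6.41 times the highest control. The mean difference was 3.55 ± 0.34 (SE, log2; 95% interval 2.73 to 4.37), or 11.7-fold between the geometric means, and 10.3-fold without control 2. The 95% intervals given for the 3 genes do not allow for their choice on this comparison, so they are a description and no test. Ly6h was also the least uniform of the 3 genes within YY1aKO, with its highest array 2.33 times its lowest.

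**Figure D1:**
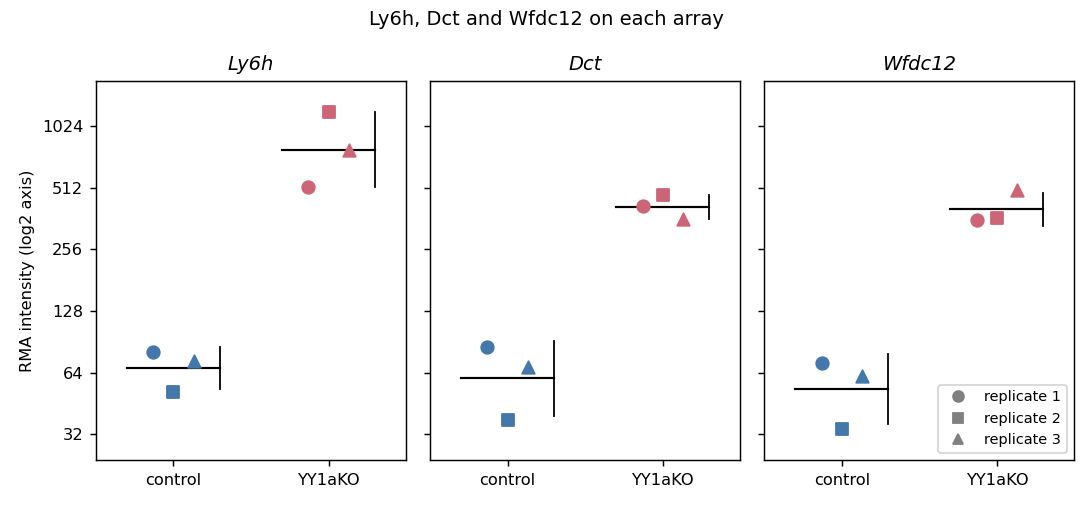
RMA intensity (vertical, log2 axis) of Ly6h, Dct and Wfdc12 on each array; circles, squares and triangles are replicates 1, 2 and 3, horizontal lines are geometric means, and vertical bars are 1 SD of the log2 values (n = 3). Control readings run from 33.9 to 85.1 and YY1aKO readings from 355 to 1204, and control 2 is the lowest control for each gene.

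Dct read 85.1, 37.7 and 68.0 in the controls and 418, 470 and 361 in YY1aKO. Its YY1aKO arrays lay close together, the highest at 1.30 times the lowest, and the lowest of them was 4.24 times the highest control. The difference was 2.78 ± 0.31 (SE, log2; 95% interval 2.03 to 3.54), or 6.88-fold, and 5.44-fold without control 2.

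Wfdc12 read 71.2, 33.9 and 61.9 in the controls and 355, 366 and 498 in YY1aKO. The lowest YY1aKO array was 4.98 times the highest control, and the highest YY1aKO array was 1.40 times the lowest. The difference was 2.92 ± 0.31 (SE, log2; 95% interval 2.17 to 3.67), or 7.57-fold, and 6.05-fold without control 2.

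The 3 genes ordered the controls alike, with control 1 highest and control 2 lowest, but they did not order the YY1aKO arrays alike: sample 2 was highest for Ly6h and Dct, and sample 3 for Wfdc12. Control 2 read below the mean of controls 1 and 3 by 0.57 for Ly6h, 1.01 for Dct and 0.97 for Wfdc12 (log2), against a median of -0.06 over all probe sets. The adipocyte markers of the same array were lower by a median of 1.30, and the part that the makeup of this sample has in the low readings of the 3 genes was not tested. In bulk tissue, fewer cells of a type and less RNA per cell cannot be told apart. The low reading of control 2 widens the fold of each gene. The groups did not overlap with every array in place, which the choice of genes for a strong rise favours. With 3 arrays per group this was also seen at small differences, as for the Ly6 family gene Slurp1 (0.12). The share of all probe sets without overlap was not counted.

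**Figure D2:**
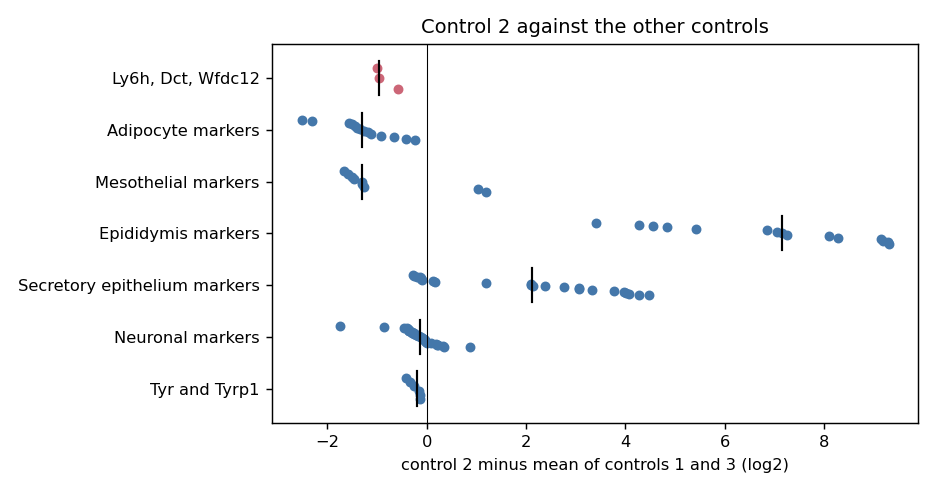
Log2 reading of control 2 minus the mean of controls 1 and 3 (horizontal), for the probe sets of the 3 genes (red) and of marker lists (blue); each point is 1 probe set and black lines are medians. The 3 genes lie from -1.01 to -0.57, the adipocyte markers have a median of -1.30, and the epididymis markers lie far to the right.

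The 3 genes were set against the other probe sets with a low control reading. Both bounds were taken from the 3 genes, which were chosen for these values, so a small count is no result. Of 7140 single-symbol probe sets whose control mean was no higher than that of Ly6h, 5 differed by at least the 2.78 of Dct: the probe sets of Ly6h, Dct, Wfdc12, Orm2 and Ncan. The median difference of those 7140 was 0.05, the same as over all probe sets. Just below this bound came Cxcl10, an interferon-induced chemokine, and Tnnc2, a fast muscle troponin, at 2.48 each, and Ucp1, the uncoupling protein of thermogenic fat cells, at 2.45. The rule that chose the 3 genes names no numerical bound, and these values only place them among the probe sets around them.

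**Figure D3:**
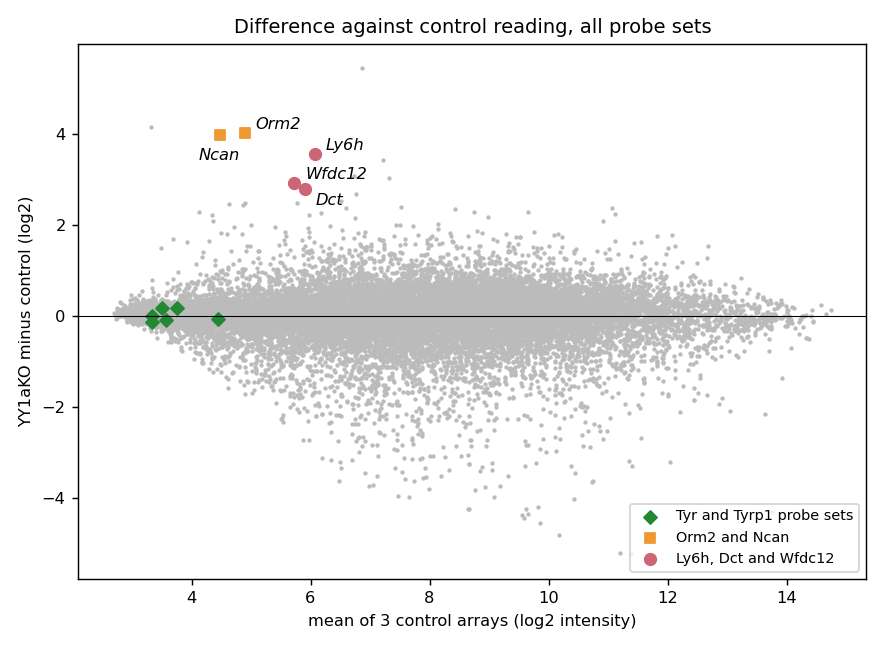
Difference between the groups (vertical, log2) against the mean of the 3 control arrays (horizontal, log2 intensity) for all 22626 probe sets, in grey; Ly6h, Dct and Wfdc12 are red circles, Orm2 and Ncan orange squares, and the probe sets of Tyr and Tyrp1 green diamonds. The 3 genes differ by 2.78 to 3.55 while Tyr and Tyrp1 lie within 0.18 of 0.

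The families of the 3 genes were then compared between the groups, with all their measured members. The lists, like the 3 genes, were drawn up with earlier results of these data known, so their counts are a description of the families and no independent evidence. The test was limma across all 22626 probe sets with Benjamini-Hochberg adjustment and a threshold of 0.05, which called 6.54% of all probe sets higher and 3.66% lower in YY1aKO. Without control 2 it called 13.9% higher and 10.6% lower. At an unadjusted p under 0.05, with all arrays, 16.7% of all probe sets were higher and 11% lower.

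The Ly6 family holds GPI-anchored and secreted proteins with the 3-finger fold of LY6H, such as the lymphocyte antigens of the Ly6 cluster, the complement inhibitor CD59 and the receptor modulators Lynx1, Slurp1 and Lypd1. Beside Ly6h, 17 genes of this family were measured, by 18 probe sets, and none was called in either direction (limma; 0 at an unadjusted p under 0.05). Their median difference was -0.06, and for 16 of the 18 the 95% interval lay below a rise of 1. Many were dim: 12 of the 18 read under 100 on every array, and 6 under 50. The smallest p-values were those of Ly6m, with readings of 22.9, 24.3 and 24.9 against 28.9, 28.5 and 25.9, and Tex101, with 10.7 to 11.6 against 12.0 to 12.7 (limma adjusted p = 0.20 and 0.28).

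Lynx1, like LY6H a modulator of nicotinic receptors, had the highest difference of the family, at 0.41 ± 0.27 (SE), and its control readings of 120, 67.2 and 123 overlapped those of YY1aKO at 148, 144 and 108. Lypd8, a Ly6 protein of intestinal epithelium, read 15629 in control 2 and 15 to 27.5 on every other array. Without control 2 the family had 2 calls, both lower and both probe sets of the complement inhibitor gene Cd59a, at -0.70 and -0.58 (limma adjusted p = 0.0048 and 0.011). The highest difference of the family without control 2 was 0.22, against 3.36 for Ly6h. Ly6a, Ly6c1 and Ly6e were not analysed here.

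The partners of Dct in melanin synthesis stayed at the bottom of the scale. The 3 probe sets of Tyr and the 3 of Tyrp1 read between 8.34 and 22.5 on all 6 arrays, with differences of -0.13 to 0.18, and the highest 95% bound among them was 0.48. None was called with or without control 2 (limma; 0 at an unadjusted p under 0.05). The brightest Tyr probe set read 22.5, 20.4 and 22.2 in the controls and 20.5, 20.3 and 21.1 in YY1aKO. The brightest Tyrp1 probe set read 14.0, 11.4 and 15 in the controls and 15.7, 15.2 and 14.7 in YY1aKO.

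Beyond these enzymes, a wider list of melanocyte and melanin genes covered 25 genes other than Dct, with 46 probe sets. None was called higher and 1 lower (limma; 1 higher and 5 lower at an unadjusted p under 0.05), and 24 of the probe sets read under 50 on every array. The differences ran from -2.16 to 1.22, with a median of -0.01. The gene called lower was Apoe, a lipid carrier that fat and macrophages also make, at 16220, 9037 and 14121 in the controls and 3133, 2497 and 2984 in YY1aKO. Its difference was -2.16 ± 0.24 (SE; limma adjusted p = 0.010), and the call was lost when any YY1aKO array or control 3 was left out (adjusted p of 0.053 to 0.068).

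Mitf, the factor behind the M-box, read 467, 191 and 322 in the controls and 407, 390 and 364 in YY1aKO, a difference of 0.34 ± 0.32 (SE; adjusted p = 0.54). The brightest probe set of Sox10, a factor of neural crest cells such as melanocytes and Schwann cells, read 123 to 143 on the 6 arrays. The melanosome genes Oca2, Slc45a2 and Trpm1 read 8.51 to 30.9. Pmel, which encodes the fibril protein of melanosomes, read 976 in control 2 and 65.9 to 89.5 elsewhere. The highest difference of the list with all arrays was that of Myo5a, a transport motor gene, at 1.22 ± 0.41 (SE; limma adjusted p = 0.12). It read 379, 119 and 230 in the controls and 460, 537 and 535 in YY1aKO, and its second probe set differed by 0.83. Gpnmb differed by 0.84 ± 0.53 (SE; limma adjusted p = 0.36), and by 1.21 without control 2, the highest of the list there. Without control 2 the list had 1 call higher, Myo5a at 0.79, and 5 lower: Apoe, Kit, Ednrb, Hps1 and Mlph. Mlana and Slc24a5 were not analysed here.

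The WAP-domain family gave 10 probe sets of 10 genes beside Wfdc12, with 0 calls in either direction (limma; 0 higher and 2 lower at an unadjusted p under 0.05) and a median of -0.22. The 2 with the smallest p were both lower: Wfdc1, at 187, 171 and 196 against 153, 145 and 143 (-0.33, adjusted p = 0.076), and Wfdc2, a gene of secretory epithelium, at 56.3, 260 and 174 against 56.3, 45.3 and 36.5 (-1.59, adjusted p = 0.13). Wfdc21 had the highest difference of the family, 0.92 ± 0.41 (SE), from 3343, 1180 and 3126 in the controls to 4412, 4723 and 4030 in YY1aKO. Its low control reading was again that of control 2, and without that array the difference was 0.44 and passed the test (adjusted p = 0.026).

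Slpi, the best known WAP-domain protease inhibitor, read 5083, 2904 and 4861 in the controls and 5473, 3509 and 2906 in YY1aKO, and the groups overlapped. Wfdc15b and Eppin, genes of the male tract, read 3203 and 4991 in control 2 and 22.6 to 70.6 on the other arrays. Without control 2 the family had Wfdc21 as its call higher and Wfdc1 (-0.38) as its call lower. A list of 23 genes for other serine protease inhibitors, with 33 probe sets, had 0 calls (limma; 1 higher and 5 lower at an unadjusted p under 0.05), and 0 higher and 10 lower without control 2.

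**Figure D4:**
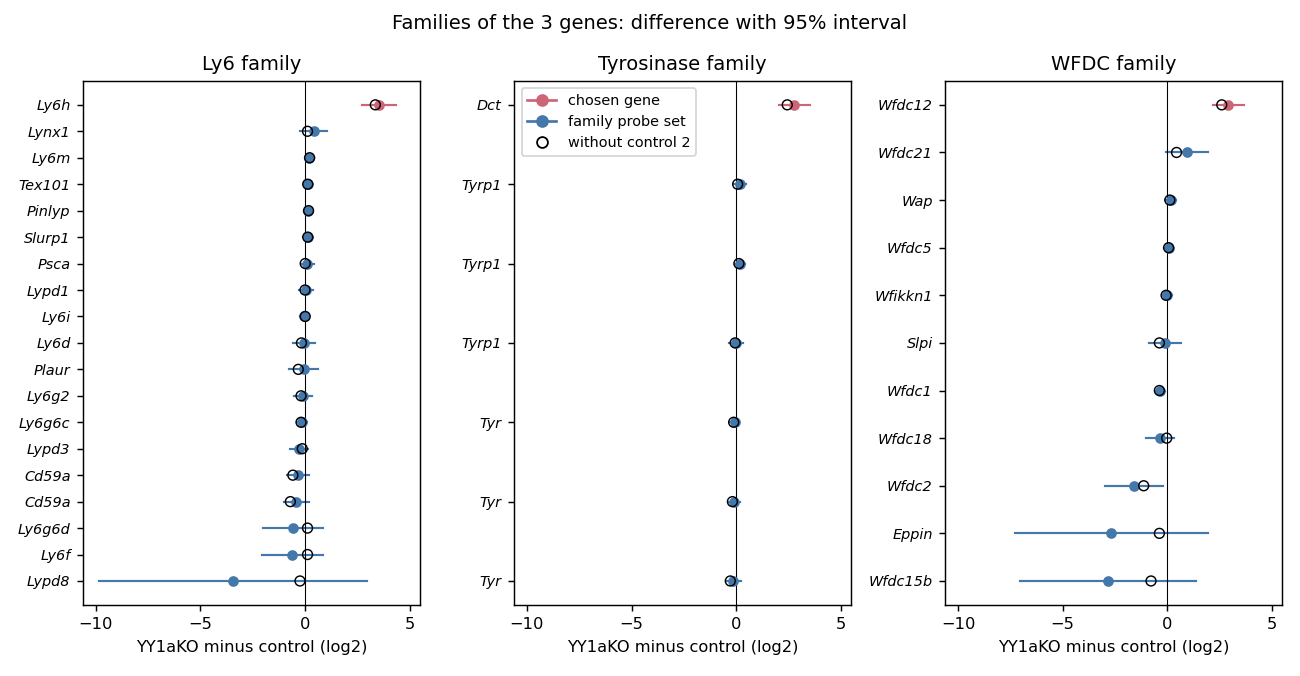
YY1aKO minus control (horizontal, log2) for each probe set of the Ly6, tyrosinase and WAP-domain (WFDC) families; filled points with bars are differences with 95% intervals from all 6 arrays (red, the chosen gene; blue, its family), and open circles are the values without control 2. Ly6h, Dct and Wfdc12 lie at 2.78 to 3.55, while the other members run from -3.43 to 0.92, and those of Lypd8, Eppin and Wfdc15b move towards 0 without control 2. The intervals of the 3 chosen genes do not allow for their choice on this comparison.

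The genes around each of the 3 on its chromosome were also compared, 5 measured protein-coding genes on each side in the RefSeq order. Of the 30 neighbours 1 was called higher and 0 lower, against the 6.54% and 3.66% of all probe sets, and without control 2 2 were called higher and 0 lower, both beside Dct. Genes without a single-symbol probe set were passed over, so these are not always adjacent genes. On one side of Ly6h, on chromosome 15, the nearest measured genes were 4 of its own family, Ly6f, Ly6g2, Ly6i and Ly6m, which were the 5th, 6th, 12th and 14th protein-coding genes away. On the other side the nearest was Top1mt, the 3rd gene away. The 10 differences around Ly6h ran from -0.69 to 0.21, with a median of -0.07. The lowest was that of Rhpn1, which read 119 in control 2 and 29.8 to 34.2 on the other arrays. It differed by -0.08 without control 2.

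Around Dct, on chromosome 14, the call was Gpr180, the second gene on that side, which encodes a membrane protein. Gpr180 read 796, 673 and 731 in the controls and 1058, 1025 and 1159 in YY1aKO, a difference of 0.56 ± 0.10 (SE; limma adjusted p = 0.027). The adjusted p was 0.0012 to 0.12 over 16 alternatives, and the call was lost in 6 of them, among them each fit without a YY1aKO array (0.097 to 0.12) and the fit without control 3 (0.091). Without control 2 it differed by 0.50 (adjusted p = 0.015). Between Dct and Gpr180 lies Tgds, at 424, 322 and 341 against 505, 471 and 528 (0.48 ± 0.13, adjusted p = 0.072). On the other side Gpc6, a cell surface proteoglycan gene, differed by -0.45 ± 0.16 (adjusted p = 0.13). Ndfip2, further along that side, was called without control 2 (0.56, adjusted p = 0.0090). The 10 differences around Dct ran from -2.40 to 0.56, with a median of -0.12. The lowest was that of Cldn10, at 288, 2355 and 1227 in the controls and 227, 178 and 139 in YY1aKO (limma adjusted p = 0.10). Dzip1 and Rbm26 differed by -0.65 and -0.58 and were not called. Rbm26 read 1051 in control 2 and 337 to 357 on the other arrays, and it differed by -0.05 without control 2.

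Around Wfdc12, on chromosome 2, the seminal vesicle genes Svs2, Svs3a, Svs4 and Svs6 and the WAP-domain gene Wfdc5 read 9.36 to 15.7 on all arrays. The median of the 10 differences was 0.04, and the highest was that of Ywhab, at 0.42. None of the 10 was called (limma).

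**Figure D5:**
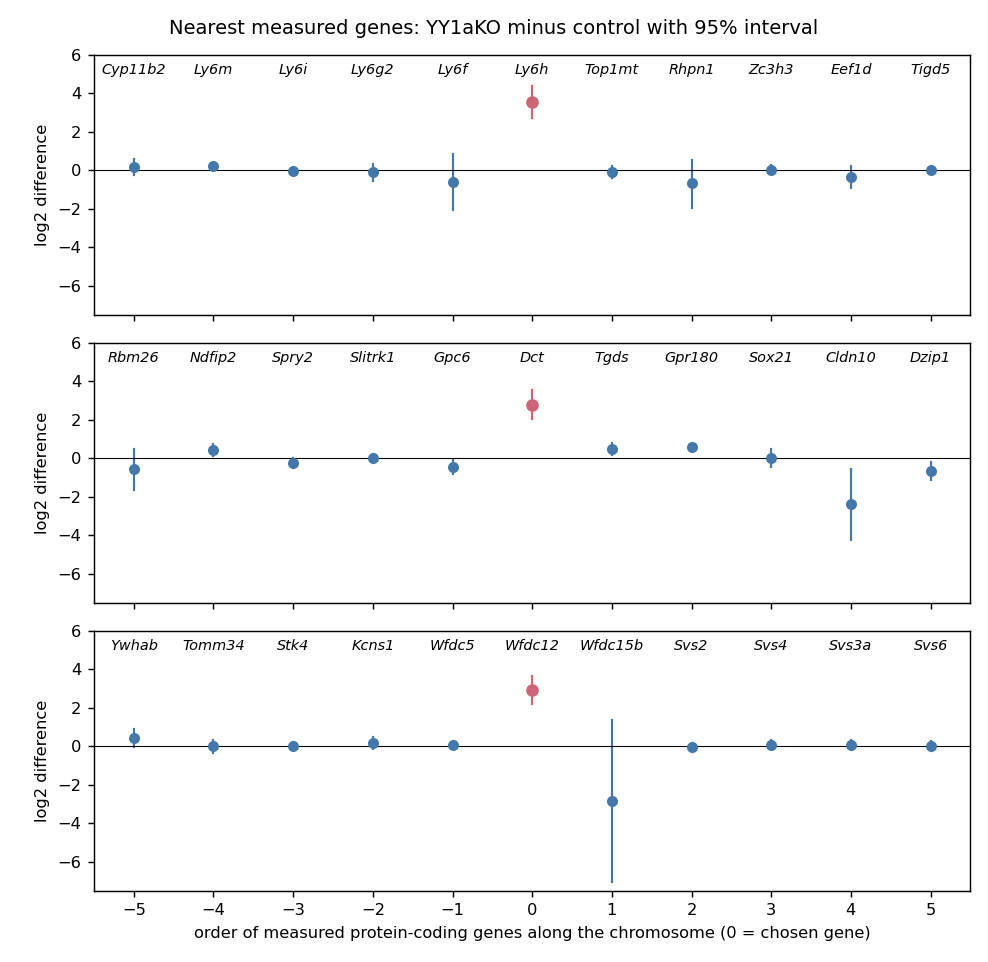
YY1aKO minus control (vertical, log2, with 95% intervals) for Ly6h, Dct and Wfdc12 (red) and for the 5 nearest measured protein-coding genes on each side (blue), in chromosomal order (horizontal). The chosen genes lie at 2.78 to 3.55 and the neighbours at -2.83 to 0.56. The intervals of the chosen genes do not allow for their choice on this comparison.

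Likeness of pattern was measured over the 6 arrays as the distance between 2 genes, the root of the summed squared differences of their log2 readings after each gene was centred on its own mean. A distance of 0 means the same shape, and since the samples form 2 groups, any genes that differ between them by a like amount come out near each other. Dct and Wfdc12 were nearest to each other among all single-symbol genes, at 0.66. Ly6h lay 1.24 from Wfdc12 and 1.28 from Dct, behind Ncan at 0.83 and Orm2 at 0.91.

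Ncan encodes neurocan, a proteoglycan of the nervous system matrix. It read 21.6, 23.4 and 21.8 in the controls and 229, 624 and 295 in YY1aKO, so that its YY1aKO arrays ordered as those of Ly6h did, with sample 2 highest and sample 1 lowest. Orm2, an acute phase protein made mostly by liver, read 31.4, 24.2 and 34.5 and then 440, 529 and 476. The other near genes of Dct were Tnnc2, Gpd1, Cidea and Fabp5 (0.71 to 0.86), and those of Wfdc12 were Cidea, Gpd1, Acta1 and Gsdme (0.67 to 0.93). Of these, Cidea coats lipid droplets in thermogenic fat cells, Gpd1 makes glycerol phosphate for triglycerides, and Fabp5 carries fatty acids.

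Acta1 and Tnnc2, near to Wfdc12 and Dct, are genes of skeletal muscle. Acta1 read 178, 110 and 171 in the controls and 1945, 1107 and 1942 in YY1aKO, and Tnnc2 read 35.5, 22.0 and 33.1 and then 145, 248 and 124. Of 26 probe sets for 20 muscle genes, a list drawn up after these values were seen, 19 read under 100 on every array, and the median difference was 0.05. Acta1 and Tnnc2 were the 2 called higher (limma; 7.69% of the list, against 6.54% of all probe sets) and 0 were lower. Without control 2, 4 of the 26 were higher and 0 lower, with Mylpf (0.43) and Myl1 (0.47) added, where 13.9% of all probe sets were higher. Myl1, a myosin light chain gene, read 1143, 316 and 1069 in the controls and 1615, 1704 and 1318 in YY1aKO. The summed muscle signal was 1609 to 2338 in the controls and 4067 to 4737 in YY1aKO, most of the gap being that of Acta1. With all arrays Myl1, Mylpf and Myh4 differed by 1.08, 0.37 and 0.27, and Tnnt1 and Mb by -1.21 and -0.82, none of them called. Ckm, Tnnt3 and Pvalb, also genes of muscle fibres, differed by 0.10, -0.03 and -0.11. The part of muscle RNA in the readings of the 3 genes was not tested.

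Because Ly6h is known from neurons and Dct from cells of the neural crest, the markers of nerve cells and of their sheaths were read on the same arrays. Of 34 probe sets for 21 neuronal genes 2 were called higher and 0 lower (limma; 8 and 0 at an unadjusted p under 0.05), with a median of 0.08. The calls were 5.88% of the list, against 6.54% of all probe sets, and at the unadjusted threshold 23.5% of the list was higher, against 16.7%. Without control 2, 6 of the 34 were higher and 0 lower, where 13.9% of all probe sets were higher. Both calls were for Elavl3, which encodes a neuronal RNA-binding protein; its stronger probe set read 43.5, 42 and 43 in the controls and 67.5, 101 and 83.2 in YY1aKO (0.95 ± 0.16, SE; adjusted p = 0.021). The calls were lost when any YY1aKO array or control 3 was left out, and that of the weaker probe set also without control 1 (adjusted p of 0.052 to 0.17).

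Among the neuronal genes Snap25 and Syt1 read 7.39 to 14.0 on all arrays, and Stmn2 read 51.6 to 193. The summed neuronal signal was 1025 to 1285 in the controls and 1254 to 1513 in YY1aKO. With all arrays the differences of the list ran from -0.47 for Rbfox3 to 0.97 for Ina, a neurofilament gene. That Ina probe set read 34.8, 40.6 and 34.7 in the controls and 85.9, 88.5 and 48.4 in YY1aKO (limma adjusted p = 0.064). Without control 2 the further calls were for Ina and Stmn3. The 28 probe sets for 11 Schwann cell genes had 0 calls (limma; 3 higher and 2 lower at an unadjusted p under 0.05). Without control 2, 2 were called higher and 0 lower, both probe sets of Mbp, which encodes myelin basic protein, at 0.69 and 0.58 (adjusted p = 0.011 and 0.049). The brighter of them read 60.4, 21.9 and 47.8 in the controls and 83.4, 90.3 and 87.3 in YY1aKO. The brightest Mbp probe set differed by 0.17 with all arrays, where its groups overlapped, and by -0.15 without control 2. The nicotinic receptor genes, whose products LY6H binds, gave 19 probe sets of 14 genes, all under 100 on every array. Of these 1 was called higher, 5.26% of the list against 6.54% of all probe sets, and 0 lower. The counts were the same without control 2. The call was for 1 probe set of the muscle subunit gene Chrng, which differed by 0.40 (limma adjusted p = 0.035, lost in 8 of 15 alternatives). The other Chrng probe sets differed by 0.16 and -0.04 and were not called.

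Skin holds melanocytes and glands make WAP-domain proteins, so the markers of both were read on the same arrays. The 30 probe sets for 19 keratinocyte and hair follicle genes had 0 calls (limma; 0 higher and 6 lower at an unadjusted p under 0.05), with summed signals of 1307 to 10136 in the controls and 1013 to 1181 in YY1aKO. Without control 2 the list had 0 calls higher and 1 lower, Trp63 (-1.23), a factor of basal epithelial cells. The 24 probe sets of secretory epithelium also had 0 calls (limma; 1 higher and 7 lower at an unadjusted p under 0.05), with 2544, 30119 and 8311 in controls 1, 2 and 3 and 1472 to 2339 in YY1aKO, and 0 calls without control 2 as well. Controls 2 and 3 carried most of the signal of both lists. With both left out, the median differences were 0.02 for the keratinocyte list and -0.07 for the secretory list, and the part of these cells in the readings of Dct and Wfdc12 was not tested.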

How the data were processed

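RNA of 6 white adipose tissue samples was measured on 1-colour Affymetrix arrays. The deposited intensities were made by the authors with RMA, per the submitters' processing notes, and stand on a linear scale; the version and settings are not given in the sources used here. RMA equalises the arrays, so a change shared by most genes is not seen; precision is limited by the number of arrays. Of 22690 probe sets 64 array controls were left out. The platform annotation gives 1 symbol for 20380, several for 691 and none for 1555, with no build for the probe sets. Groups came from the titles. log2 intensities of all 22626 probe sets were fitted with limma 3.58.1 (R 4.3.3; lmFit, eBayes, no filter, two-sided), with Benjamini-Hochberg adjustment and a threshold of 0.05. The fit was tested on simulated data.

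The 3 genes, the gene lists and the rule for names were chosen with earlier results of these data known. Named are the 3 genes, Yy1, Tyr and Tyrp1; in each family the called probe sets, or else the 2 with the smallest p; neighbours, the 5 nearest genes in pattern and defining markers. Family members with the highest difference or readings set by control 2, the muscle list and the neurocan family were added after values were seen. Alternatives covered scaling, filters, variance model, array weights, a replicate block, an offset and leaving out arrays.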

Additional observations from a re-analysis of the deposited data

How the results depend on the processing

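Ly6h, Dct and Wfdc12 stayed higher in YY1aKO in every alternative run. Each alternative used the arrays on which these genes were chosen, so this is a description and no test. With each array left out in turn, the differences (log2) ran from 3.24 to 3.85 for Ly6h, 2.44 to 3.03 for Dct and 2.60 to 3.13 for Wfdc12. With 32 added before the log2 they were 3.04, 2.26 and 2.33, since the offset compresses low readings, and without controls 2 and 3 Dct differed by 2.28. The counts of calls by limma moved more. Over all probe sets, 1479 were higher and 827 lower. With each array left out they ran from 10 to 3142 higher and from 8 to 2390 lower, with 3142 higher without control 2, 139 without control 3, and 79, 10 and 14 without YY1aKO replicates 1, 2 and 3. With array weights 5192 were higher and 4203 lower, with 1 probe set per gene 849 and 495 (of 12393), and without controls 2 and 3 1838 were lower. With the replicate block 6 were higher and 10 lower. The labels share only a number, and same-numbered samples did not deviate together (correlations of -0.10, -0.08 and -0.10), so the numbers were not taken as pairs. With each array left out, the Ly6 family had 0 calls higher and 0 to 2 lower, the melanocyte list 0 to 1 higher and 0 to 5 lower, and the WFDC family 0 to 1 higher and 0 to 1 lower. With array weights these were 3 lower for Ly6, 4 higher and 11 lower for the melanocyte list, and 1 higher and 2 lower for WFDC. Without controls 2 and 3, chosen after seeing the data, Ly6 had 3 lower and the melanocyte list 2. The melanocyte list had 2 lower among the brightest 60% and with the offset, and 0 with the replicate block; WFDC had 1 lower with the offset. The cause was not tested.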

Other observations

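Neurocan belongs to the lecticans, matrix proteoglycans that bind hyaluronan. These values were looked up after Ncan was found nearest to Ly6h in pattern, so they are a description. The second Ncan probe set was dimmer and differed less, at 16.3, 15.7 and 17.1 in the controls and 23.2, 25.9 and 22.9 in YY1aKO, a difference of 0.55, against 3.97 for the first. The 2 probe sets of Ncan thus moved the same way by unequal amounts.

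The other lecticans and their link proteins differed by less than the first Ncan probe set, and 1 of them by as much as the second. Bcan (brevican) read 37.7, 38.1 and 38.6 in the controls and 47.8, 47.1 and 42.1 in YY1aKO, a difference of 0.26. Acan (aggrecan), of cartilage, differed by 0.06, and the 3 probe sets of Vcan (versican), which many connective tissues make, differed by -0.20, 0.18 and 0.55. Hapln1 and Hapln2, genes of link proteins, read 7.78 to 43.7 on all arrays.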
